A study of Mus musculus with 8 samples.

Results

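mmu-miR-122, mmu-miR-192, mmu-miR-194 and mmu-miR-148a (below without the prefix for mouse) are miRNAs that liver tissue holds at high levels, and their rows were read in Kupffer cells (KC) and blood monocytes (MNC) of Balb/C mice. They were chosen by name, as 4 of the 566 mouse miRNAs on a panel whose table had 626 rows. KC, the resident macrophages of the liver, were taken from perfused, collagenase-treated liver after slow spins to remove hepatocytes and a density gradient. MNC were taken from the mononuclear layer of blood. Both were then sorted with magnetic beads against a macrophage surface antigen, and no treatment of the animals is listed. Per the labels each of the 4 KC and 4 MNC samples was a pool from 5 mice, and 100 ng of total RNA entered each reaction. The 4 samples of a group are counted as replicates, and nothing in the labels tells whether pools were sorted on separate days.

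A miRNA is a short RNA that pairs with target mRNAs mainly through its seed, the bases 2 to 8 from its 5′ end, and lowers their translation and stability. miR-122 is the miRNA that marks the hepatocyte, the parenchymal cell of the liver, where it acts on genes of cholesterol and lipid metabolism. miR-192 and miR-194 are made together from common transcripts and are abundant in liver, gut and kidney epithelium. miR-148a is abundant in hepatocytes, acts on genes of lipid metabolism and on the DNA methyltransferase Dnmt1, and is also made by other cell types.

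Mature sequences are shown for the rows that share a seed or a transcript with a relative. A probe may not tell relatives of similar sequence apart. miR-192 and miR-194 share a transcript but no seed, and differ at 16 of the positions they share. They are RefSeq sequences on build GRCm38.p6, written 5′ to 3′ with the seed in capitals. The panel names give no arm of the hairpin, and each was taken as the arm that older naming gives it. miR-192 and miR-215 share the seed and differ at 3 positions, and miR-215 was not analysed here.
mmu-miR-192-5p: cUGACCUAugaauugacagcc
mmu-miR-215-5p: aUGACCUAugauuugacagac
mmu-miR-194-5p: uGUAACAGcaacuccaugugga
mmu-miR-148a-3p: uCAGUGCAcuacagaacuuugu
mmu-miR-148b-3p: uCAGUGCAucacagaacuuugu
mmu-miR-152-3p: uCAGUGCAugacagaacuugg
miR-148a differs from miR-148b at 2 positions and from miR-152 at 3 of the positions they share, all outside the seed.

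The mature miR-192 lies at chr19:6264857-6264877 on the plus strand. The same mature miR-194 comes from Mir194-2, at chr19:6264658-6264679 and 115 bases from the Mir192 hairpin, and from Mir194-1, at chr1:185313325-185313346 within the Iars2 gene. Mir215, at chr1:185313610-185313630, lies 195 bases from the Mir194-1 hairpin, so each miR-194 gene has a member of the miR-192 family beside it. The mature miR-148a lies at chr6:51269829-51269850 on the minus strand and overlaps the gene model Gm38821. miR-148b lies in Copz1 on chromosome 15 and miR-152 in Copz2 on chromosome 11, both at genes of the COPI vesicle coat.

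Each value is a normalized signal: the number of fluorescent barcodes counted for a miRNA, times 1 factor per sample that brought the 4 mRNAs of the panel (Actb, B2m, Gapdh and Rpl19) to the same geometric mean. The factor was 1.52 to 1.76 in KC and 0.589 to 1.06 in MNC, because the geometric mean count of these mRNAs was 1074 ± 254 among MNC samples against 505 ± 32.3 among KC samples (SD, n = 4 per group). The factor applies to every row outside the positive and negative controls, with scaled values under 1 listed as 1, and the median difference of all 566 mouse miRNAs was 0.94 (log2) on the signal and 0 on the counts. Counts were therefore read beside the signal. The total over mouse miRNAs was 8669 to 10194 counts in KC and 5374 to 10568 in MNC. A count passed as above background where it was over the highest of the 8 negative controls, which was 20 to 31 counts in KC and 17 to 35 in MNC. By this limit 362 mouse miRNAs, 64% of the panel, never exceeded background.

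miR-122 stood far above background in every KC sample and below the negative controls' mean in every MNC sample. KC 1 to KC 4 gave 161, 548, 685 and 439 counts, and MNC 1 to MNC 4 gave 2, 7, 6 and 3. All 4 KC values lay above all 4 MNC values, and the lowest KC count was several times the highest negative control of any sample. Per highest negative control of the same sample, its count was 8.05, 17.7, 29.8 and 17.6 in KC and 0.118, 0.2, 0.286 and 0.0857 in MNC. Of the 4 miRNAs it alone passed the limit in all 4 KC samples, as 4.42% of the panel did. In KC it also exceeded each of the 36 rows for herpesvirus, plant and worm miRNAs, which serve here as a further measure of background, and in MNC it exceeded 3 to 10 of them. In MNC the row therefore gives only an upper bound on the level. Each value is that of a whole cell pool, in which fewer cells of a type and less RNA per cell cannot be told apart.

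Ranked among the 566 mouse miRNAs, miR-122 was 5th, 1st, 1st and 2nd in KC 1 to KC 4 and 341st to 468th in MNC, an order that also depends on how well each probe binds. It took 1.72%, 5.67%, 7.90% and 4.31% of all mouse miRNA counts in KC. In MNC it took 0.0300% to 0.0688%. The mean share was 4.90% ± 2.59 for KC against 0.0506% ± 0.0198 for MNC (SD, n = 4 per group). An exact two-sided permutation test gave p = 0.0286, which is the lowest value that 4 against 4 samples allow. This share does not contain the factor. Its total does contain background, which was not subtracted and was a large part of the counts. The median mouse miRNA had 8 to 11.5 counts in KC and 7 to 14 in MNC. The mean negative control was 11.9 to 14.8 and 9.25 to 16.5. The share is therefore one of all counts and not of the miRNA pool.

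**Figure D1:**
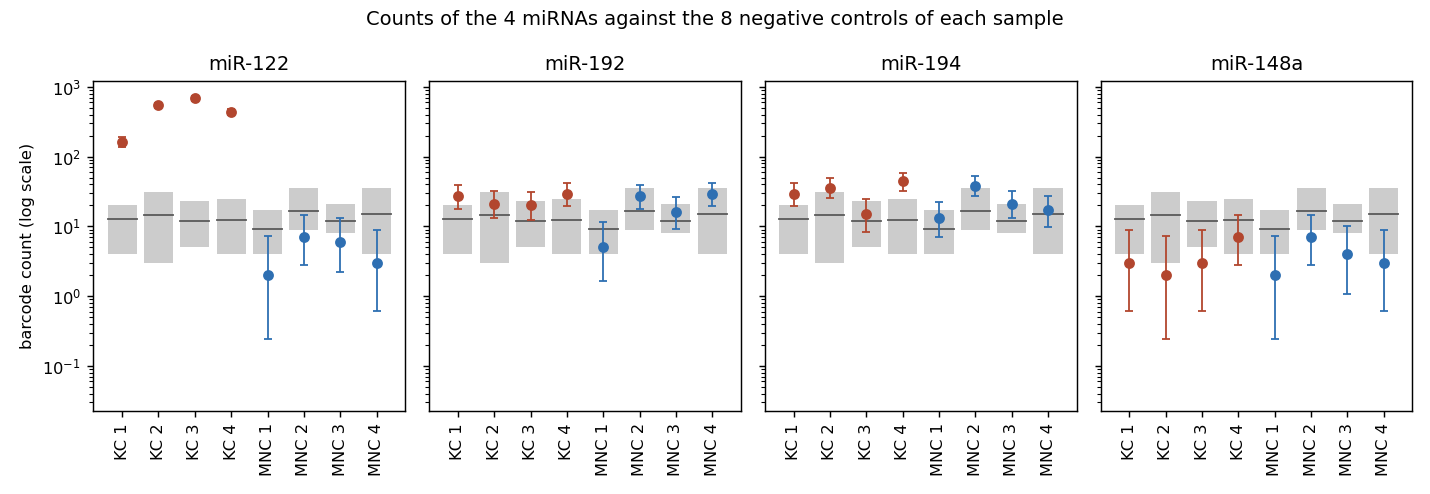
Barcode counts of miR-122, miR-192, miR-194 and miR-148a (log scale) in the 4 KC samples (red) and 4 MNC samples (blue), with exact Poisson 95% intervals as bars and the range and mean of the 8 negative controls of each sample as a grey box and line. miR-122 lay at 161 to 685 in KC and at 2 to 7 in MNC, while the other 3 miRNAs lay within or near the grey boxes in both groups.

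Because MNC gave only a bound, the fold of miR-122 is a lower limit in each KC sample. Against the geometric mean of the MNC samples' highest negative controls, the signal of KC 1 was higher by at least 12.3-fold, that of KC 2 at least 48.2-fold, KC 3 at least 56.7-fold and KC 4 at least 34.1-fold. On counts these limits were 6.26, 21.3, 26.6 and 17.1. The lowest limit was that of KC 1 on either scale.

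miR-192 was at the edge of background in KC and at background in MNC. KC 1 to KC 4 gave 27, 21, 20 and 29 counts, and MNC 1 to MNC 4 gave 5, 27, 16 and 29. The groups overlapped on counts, and MNC 1 was the only sample far from the rest. It was above the highest negative control in KC 1 and KC 4, at 1.35 and 1.16 times that control, and in no MNC sample. The deposited signal was 41.17, 36.92, 33.06 and 45.02 in KC and 2.95, 19.71, 16.94 and 23.16 in MNC. On this scale all KC samples were above all MNC samples, whereas on counts MNC 4 equalled the highest KC sample.

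For miR-194, KC 1 to KC 4 gave 29, 36, 15 and 44 counts, and MNC 1 to MNC 4 gave 13, 38, 21 and 17. It was above background in KC 1, KC 2 and KC 4, at 1.45, 1.16 and 1.76 times the highest negative control, and in MNC 2 at 1.09 times. KC 3 lay at 0.652 of that control. The deposited signal was 44.22, 63.29, 24.79 and 68.30 in KC and 7.66, 27.74, 22.24 and 13.58 in MNC. The groups overlapped on this scale too, since KC 3 was below MNC 2. At these counts the precision was low: the exact Poisson 95% interval was 8.40 to 24.7 for the 15 counts of KC 3 and 32.0 to 59.1 for the 44 counts of KC 4. All such intervals cover counting error only.

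miR-148a was at background in all 8 samples. KC 1 to KC 4 gave 3, 2, 3 and 7 counts and MNC 1 to MNC 4 gave 2, 7, 4 and 3, under the mean negative control of each sample. Of the 36 rows for herpesvirus, plant and worm miRNAs it exceeded 3 to 12 in KC and 3 to 10 in MNC. No level of miR-148a could be told from background in either cell type at this depth.

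With limma across all 566 mouse miRNAs, 3 of the 4 miRNAs were called higher in KC on the deposited signal, and 0 were lower. Of the whole panel 24.7% was called higher in the same fit, 140 miRNAs in all. On counts 1 of the 4, miR-122, was called higher, and it was the only call on the panel (0.177%). With counts scaled to the same total it was again the only one of the 4 called higher, when 1.41% of the panel was. The calls of miR-192 and miR-194 thus stood in the signal and not in the counts, and the mRNA counts that set the factor differed between the groups as given above.

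The differences below are KC minus MNC on the log2(value + 1) scale, which understates changes of low rows. For miR-122 the signal difference was 7.26 (SE 0.49, limma adjusted p = 7.97e-12), which is 6.32 above the median of all miRNAs, and the count difference was 6.31. Both fitted values depend on the added 1 because MNC was at background. For miR-192, with a mean signal of 39.0 ± 5.18 for KC against 15.7 ± 8.87 for MNC (SD, n = 4 per group), it was 1.54 (SE 0.48, limma adjusted p = 0.0342), which is 0.60 above that median. On counts it differed by 0.54 (limma adjusted p = 0.996). Over all alternatives to the signal fit, the limma adjusted p ran from 0.0120 (signal with a replicate block) to 0.9998 (positive controls). MNC 1 weighed most: without it the signal difference was 0.94 (limma adjusted p = 0.0166).

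For miR-194, with a mean signal of 50.2 ± 19.8 for KC against 17.8 ± 8.93 for MNC (SD, n = 4 per group), the signal difference was 1.49 (SE 0.45, limma adjusted p = 0.0308), which is 0.55 above the median of all miRNAs. On counts it differed by 0.47 (limma adjusted p = 0.996). Over all alternatives to the signal fit, adjusted p ran from 0.0114 (edgeR with the factor as offset) to 0.9998 (limma, positive controls). Without KC 1, KC 2 or KC 4 neither miR-192 nor miR-194 was called, with limma adjusted p of 0.0626 to 0.0987. For miR-148a it was 0.73 (SE 0.44, limma adjusted p = 0.163), at -0.21 from that median, and the count difference was -0.080. For single values, the exact two-sided permutation p on the signal was 0.0286 for miR-122 and miR-192, 0.0571 for miR-194 and 0.2 for miR-148a. Every KC signal was above every MNC signal for miR-122 and miR-192, as for 36.9% of the panel, and on counts for miR-122 alone, as for 2.3% of the panel.

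**Figure D2:**
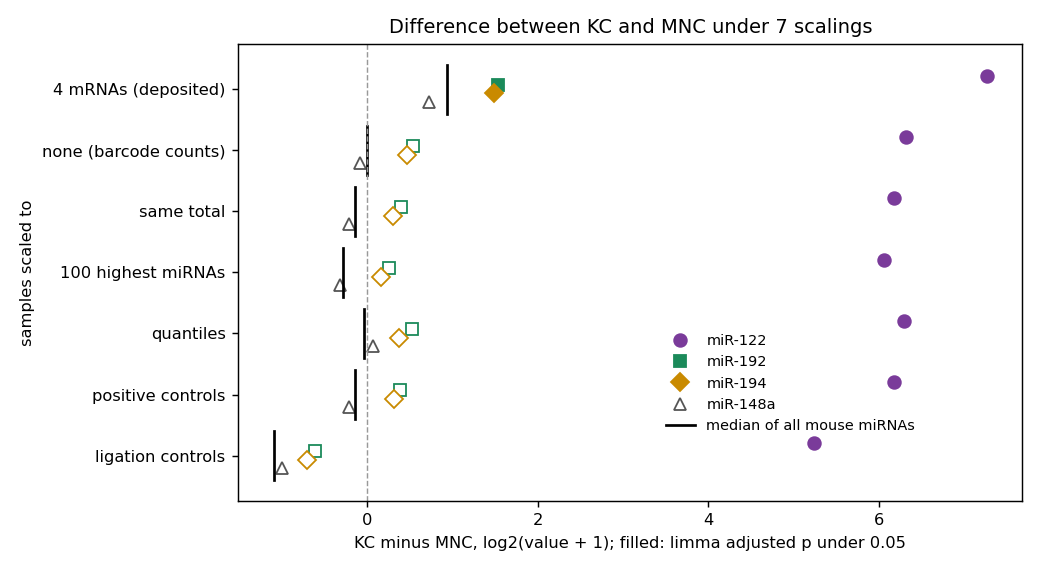
Difference between KC and MNC, as log2(value + 1), of miR-122, miR-192, miR-194 and miR-148a (coloured points) under 7 ways to scale the samples, with the median of all 566 mouse miRNAs as a black bar; filled points have a limma adjusted p under 0.05. miR-122 stayed between 5.24 and 7.26 and was filled throughout, whereas miR-192 and miR-194 moved with the black bar, were filled only for the deposited scaling and turned negative (-0.61 and -0.70) for the ligation controls, as miR-148a did (-0.997).

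The scaling changed the direction for 3 of the 4. The panel holds 3 positive ligation controls, synthetic RNAs that follow the step in which a tag is joined to each miRNA. Their geometric mean count was 2161 ± 687 for KC against 917 ± 279 for MNC (SD, n = 4 per group; exact permutation p = 0.0286). Scaled to them, miR-192 differed by -0.61, miR-194 by -0.70 and miR-148a by -0.997, none past the limma threshold, while 45.6% of the panel was called lower in KC. Relative to the median of all miRNAs under that scaling, miR-192 was at 0.48 and miR-194 at 0.39. miR-122 differed by 5.24 and was called, among 0.53% of the panel called higher. The share of all mouse counts carries no factor, but its total includes background counts. For miR-192 this share was 0.255% ± 0.0363 among KC samples against 0.205% ± 0.0871 among MNC samples (SD, n = 4 per group; exact permutation p = 0.371). For miR-194 it was 0.322% ± 0.111 against 0.253% ± 0.0786 (SD, n = 4 per group; exact permutation p = 0.314).

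The ratio of the counts of a pair of miRNAs within 1 sample does not depend on the factor. Probes differ in efficiency, so a ratio is read between samples and not as a ratio of molecules. miR-122 over miR-192 was 5.96, 26.1, 34.3 and 15.1 in KC 1 to KC 4 and 0.4, 0.259, 0.375 and 0.103 in MNC 1 to MNC 4, in counts. miR-122 over miR-194 was 5.55, 15.2, 45.7 and 9.98 in KC and 0.154, 0.184, 0.286 and 0.176 in MNC. All KC ratios were above all MNC ratios, and within KC the ratio was lowest in KC 1 and highest in KC 3 for both.

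Within KC, the counting intervals of the lowest and highest ratio did not overlap, with no measure of the spread between repeated assays of 1 pool. For miR-122 over miR-192 the Clopper-Pearson 95% interval was 3.95 to 9.33 in KC 1 and 22.0 to 56.4 in KC 3. For miR-122 over miR-194 it was 3.72 to 8.55 in KC 1 and 27.5 to 82.0 in KC 3. In KC 3 both partners lay under the highest negative control, so its ratios rest on a partner at background. With the mean negative control taken from both counts, the ratio to miR-192 was 10.5, 85.3, 82.8 and 25.7 and that to miR-194 was 9.19, 25.1, 215 and 13.5. The partner was then 6.25 and 8.13 counts over the mean control for miR-192 in KC 2 and KC 3 and 3.13 for miR-194 in KC 3, so these values are the least precise. KC 1 stayed lowest for both.

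miR-122 over miR-148a was 53.7, 274, 228 and 62.7 in KC and 1, 1, 1.5 and 1 in MNC. Its denominator was 2 to 7 counts throughout, so in KC it is better given as a bound. With the partner at the higher of its own count and the highest negative control, miR-122 was at least 8.05, 17.7, 29.8 and 17.6 times miR-148a in KC 1 to KC 4. The same bound was 5.96, 17.7, 29.8 and 15.1 for miR-192 and 5.55, 15.2, 29.8 and 9.98 for miR-194.

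**Figure D3:**
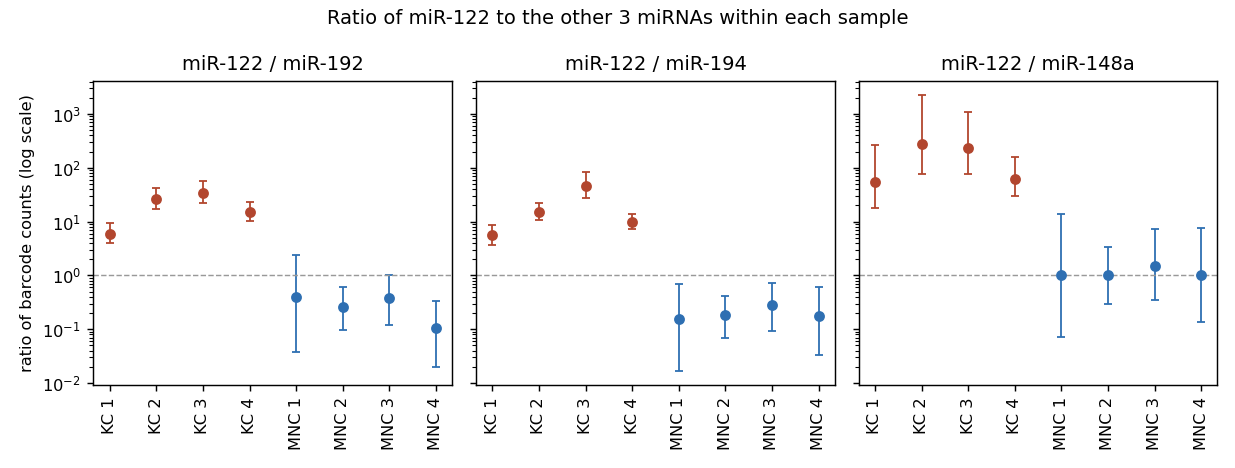
Ratio of the barcode count of miR-122 to that of miR-192, miR-194 and miR-148a (log scale) in each KC sample (red) and MNC sample (blue), with Clopper-Pearson 95% intervals. The KC ratios were 5.96 to 34.3, 5.55 to 45.7 and 53.7 to 274, and each MNC ratio was 1.5 or lower.

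The 6 pairs among the 4 miRNAs were compared between the groups by an exact two-sided permutation test on the log2 ratio of signal + 1. Unlike the count ratios, these depend on the factor through the added 1, most where counts are low. The differences for miR-122 over miR-192, miR-194 and miR-148a were 5.72, 5.77 and 6.53 (exact permutation p = 0.0286 for each). In MNC miR-122 was at background throughout and its partners were too, apart from miR-194 in MNC 2, so these values are no measured sizes and mainly restate the level of miR-122 in KC. With 50 in place of 1 added to each signal they were 3.28, 3.18 and 3.66. Adjusted over the 6 pairs by Benjamini-Hochberg these permutation p-values were 0.0571, so none passed 0.05. With 3 of 6 pairs at the smallest possible p, the adjusted value cannot be lower. The ratio of miR-192 to miR-194 differed by 0.050 (exact permutation p = 0.943, adjusted p = 0.943). It was 0.583 to 1.33 in KC and 0.385 to 1.71 in MNC. The ratios of miR-192 and of miR-194 to miR-148a differed by 0.81 (exact permutation p = 0.143) and 0.76 (exact permutation p = 0.0857), with a partner at background.

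Within KC, the 4 miRNAs did not order the samples alike. miR-122 was highest in KC 3, then KC 2, KC 4 and KC 1, in counts and in signal, and no pair of its Poisson intervals overlapped, with 635 to 738 in KC 3, 503 to 596 in KC 2, 399 to 482 in KC 4 and 137 to 188 in KC 1. miR-192 and miR-194 were both highest in KC 4 and lowest in KC 3 in counts and in signal, the sample that led for miR-122. As a share of all mouse counts miR-192 was instead highest in KC 1 (0.288%) and lowest in KC 2 (0.217%), with 0.231% in KC 3. For miR-192 the intervals of all 4 KC samples overlapped, from 12.2 to 30.9 in KC 3 up to 19.4 to 41.6 in KC 4, so its order is within counting error. miR-194 ran from KC 4 through KC 2 and KC 1 to KC 3, with overlapping intervals between neighbours, while the interval of KC 3 was apart from those of KC 2 and KC 4. miR-148a was highest in KC 4, at 7 counts, with all intervals overlapping.

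The signal of miR-122 varied 4.61-fold within KC, with a coefficient of variation of 51.3%, beside 13.3% for miR-192, 39.6% for miR-194 and 55.5% for miR-148a. The last 3 are rows at or near background, so their variation is not set against that of miR-122. Per ligation control count the order changed. miR-122 was then 6.54%, 25.5%, 24.3% and 36.1% of the ligation controls in KC 1 to KC 4, with KC 4 highest and KC 1 still lowest. All 4 miRNAs were highest in KC 4 on that scale, where the ligation controls had 1217 counts against 2148 to 2821 in the other KC samples. Among the MNC samples, MNC 1 had the lowest count of each of the 4 and the lowest total, 5374. A correlation over 4 KC samples is not given.

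Over all 8 samples, the rows whose log2(signal + 1) ran most like a member's were found among the 55 mouse miRNAs above background in at least 4 samples. For miR-122 they were miR-466g (above background in the 4 KC samples only), miR-200b and let-7c, with Pearson r of 0.952, 0.939 and 0.935. On counts let-7c led with 0.891. For miR-192 they were miR-2140 (0.992), miR-1892 (0.980) and miR-23a (0.979). For miR-194 they were the joint row for miR-181b and miR-181d (0.959), miR-764-5p (0.959) and miR-873 (0.958), and for miR-148a they were miR-29b (0.913), miR-216a (0.899) and miR-29c (0.898). Among the 4 themselves, r was 0.755 between miR-122 and miR-192, 0.803 between miR-122 and miR-194 and 0.848 between miR-192 and miR-194. miR-148a, at background in all samples, still gave 0.615 with miR-122, 0.767 with miR-192 and 0.798 with miR-194. On counts the values for miR-122 were 0.412 with miR-192, 0.425 with miR-194 and 0.0028 with miR-148a. Between miR-192 and miR-194 r was then 0.623, and miR-148a gave 0.524 with miR-192 and 0.603 with miR-194. The signals share the factor, and both scales share the same 2 groups, so these values only describe the 8 samples.

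The seed relatives of miR-148a were at background as well. miR-148b had 3, 1, 2 and 1 counts in KC and 3, 4, 2 and 3 in MNC. miR-152 had 20, 21, 20 and 19 counts in KC and 14, 29, 19 and 26 in MNC, and was never over the highest negative control. Neither was called on the signal, with differences of 0.14 (limma adjusted p = 0.717) and 0.93 (limma adjusted p = 0.0715).

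A further 7 miRNAs known to be abundant in hepatocytes were on the panel: miR-802, miR-193, miR-101a, miR-101b, miR-22, miR-30a and miR-378. Their summed counts were 77 to 85 in KC and 53 to 98 in MNC, while those of the 4 members were 220 to 723 and 22 to 79. Of the members' sums miR-122 alone gave 161 to 685 in KC and 2 to 7 in MNC. The 6 others beside miR-101b never exceeded the background limit. On the signal 1 of the 7 was called higher, where 24.7% of the panel was, and 0 lower, and on counts 0 were called. The median difference of the 7 was 1.04 on the signal and 0.091 on counts, against 0.94 and 0 over all 566. miR-101b was the called one, with 45, 37, 30 and 46 counts in KC and 19, 48, 17 and 32 in MNC. Its signal differed by 1.56 (SE 0.42, limma adjusted p = 0.0211), and it was above background in 4 KC and 2 MNC samples. miR-802, a miRNA of hepatocytes and other epithelia, had 6 to 9 counts in every sample.

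**Figure D4:**
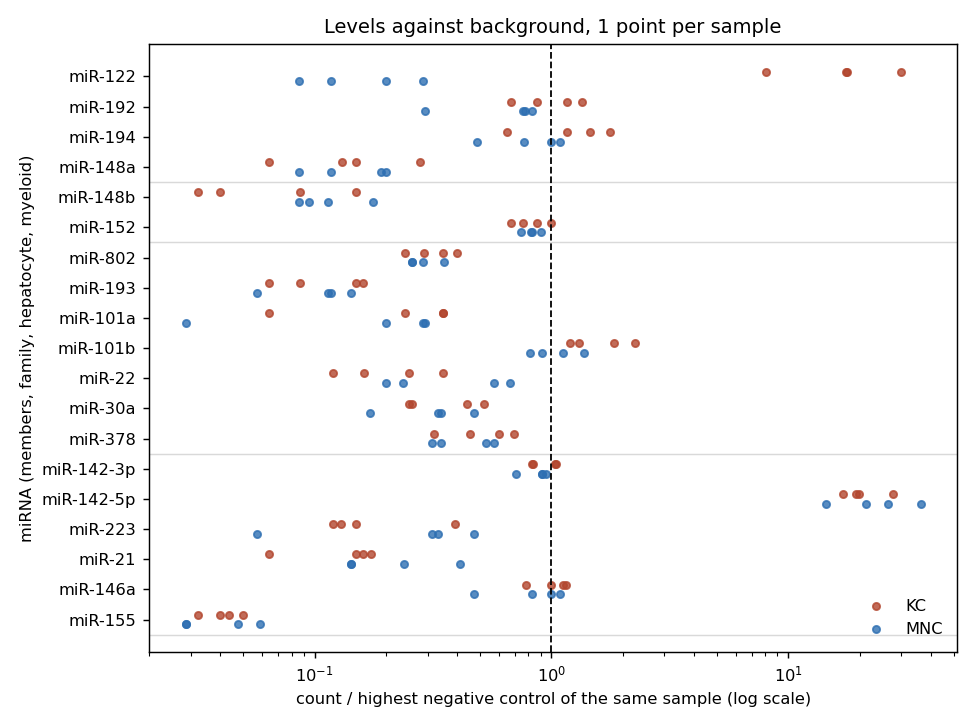
Count divided by the highest negative control of the same sample (log scale, dashed line at 1) for the 4 members, the seed relatives miR-148b and miR-152, the other 7 hepatocyte miRNAs and 6 myeloid miRNAs, with 1 point per KC sample (red) and MNC sample (blue). Rows lying wholly right of the line in KC were miR-122, miR-101b and miR-142-5p, and only miR-142-5p did so in MNC as well.

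The part that RNA from hepatocytes may have in the KC samples was not tested, and the 4 mRNAs on the panel are widely expressed genes. Rows expected of the sorted cells were uneven too. Of 6 myeloid miRNAs, miR-142-5p had 459 to 554 counts in KC and 505 to 745 in MNC, whereas miR-223, miR-21 and miR-155 were above background in no sample. miR-155 stood at 1 count in all 8, a count assigned in MNC 1, MNC 2 and MNC 4, where its signal was listed as 1. The myeloid list summed to 510 to 605 counts in KC and 583 to 823 in MNC, with 0 of 6 called on the signal, where 24.7% of the panel was, and a median difference of 0.63 against 0.94 over all 566.

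Markers of other liver and blood cells were read the same way. Of 2 endothelial miRNAs 0 were called and the sums were 4 to 6 counts in KC and 6 to 14 in MNC. Of 5 mesenchymal miRNAs 3 were called higher on the signal, where 24.7% of the panel was, with sums of 39 to 63 and 31 to 61. Of these 5, 4 were never above background. Of 5 epithelial miRNAs 3 were called higher, against the same 24.7%, with sums of 102 to 142 and 66 to 131. Of the called rows miR-200b was above background in all 8 samples, and miR-141 and miR-429 were above it in none. Of 3 red cell miRNAs 0 were called, with sums of 90 to 123 in KC and 105 to 636 in MNC. Of 2 lymphocyte miRNAs 0 were called, with sums of 65 to 163 and 26 to 514. None of these lists had a row called on counts, and their part in the levels of the 4 miRNAs was not tested.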

How the data were processed

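Small RNA levels were measured with the nCounter Mouse miRNA V1.5 panel in 4 KC and 4 MNC samples. The labels give pools of 5 mice, while the study's methods allow slightly smaller pools. RNA was isolated with a column kit for total RNA, concentrated, ligated to tags and counted by the authors, who processed the counts in nSolver. The deposited unit is a normalized signal. The study describes positive control and reference gene scaling for its mRNA panel and remarks that miRNAs were the references in this assay, without naming them. The values show another reference, the 4 mRNAs, as follows, and how this relates to that remark is not known. Outside the positive and negative controls, 100% of the values above 1 were whole multiples of 1 factor per sample (to 0.0084 of a count), which set the 4 mRNAs to a geometric mean of 816.05 to 816.08. Background had not been subtracted. Scaled values under 1 were listed as 1 for 49, 21 and 42 mouse miRNAs in MNC 1, MNC 2 and MNC 4 and were taken as 1 count.

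log2(signal + 1) of all 566 mouse miRNAs entered a limma fit (version 3.58.1, R 4.3.3; lmFit, eBayes with trend) on group alone, with p-values adjusted by Benjamini-Hochberg over the 566 and a threshold of 0.05. edgeR 4.0.16 (quasi-likelihood, recovered counts with the factor as offset) called 183 miRNAs, 32.3% of the panel, and 3 of the 4 members, but the values listed as 1 limit it. Single values and ratios were compared over all 70 splits of 8 samples (SciPy 1.17.1, Python 3.11.15). Share tests carry raw p-values only. Alternatives were other scalings, pseudocounts, background limits, tests, a replicate block and leaving out each sample. The members and lists were chosen with earlier results of these data known. Besides the members, the miRNAs named were their listed relatives, 7 other hepatocyte miRNAs, cell type markers and, per member, the 3 rows of highest Pearson r. Sequences are from RefSeq (GRCm38.p6).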

Additional observations from a re-analysis of the deposited data

Results flagged for a closer look

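Of 36 sets of 4 samples examined for 1 sample far from the other 3, 1 stood out, and chance gives about 5% of such sets. It was the log2 ratio of miR-122 to miR-148a in MNC 3, at 0.49 against 0 in MNC 1, MNC 2 and MNC 4. Both miRNAs had equal counts in those 3 samples (2, 7 and 3) and 6 and 4 counts in MNC 3, all below the negative controls' mean.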

How the results depend on the processing

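The difference of miR-122 kept its sign and its call in 21 of 22 alternatives, at 3.73 to 8.46, and lost the call in the exact Mann-Whitney test (7.26, adjusted p = 0.0774), where 209 rows share the smallest p that 4 against 4 samples allow. That of miR-192 was 0.54 on counts, 0.40 at the same total, 0.26 with the 100 highest miRNAs as reference, 0.39 with the positive controls and 0.54 after quantile normalization, none called; it lost the call in the Mann-Whitney test (1.54, adjusted p = 0.0774) and reversed to -0.61 with the ligation controls. That of miR-194 was 0.47, 0.31, 0.17, 0.32 and 0.38 in the same order, 1.49 by Mann-Whitney (adjusted p = 0.112) and -0.70 with the ligation controls. miR-148a reversed to -0.080 on counts, -0.20 at the same total, -0.32 with the 100 highest, -0.997 with the ligation and -0.20 with the positive controls. With the mean negative control subtracted it was called at 0.55, the value every row held at 1 count takes from the factor. Leaving out 1 sample gave 6.94 to 7.73 for miR-122, 0.94 to 1.81 for miR-192, 1.16 to 1.78 for miR-194 and 0.44 to 0.94 for miR-148a.

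Of the 4 miRNAs, 1 was called on counts, at the same total, with the 100 highest, ligation or positive controls and after quantile normalization. After subtraction 4 were called, miR-148a through the factor as given above. By Mann-Whitney 0 were called, and 1 to 3 without 1 sample (1 without KC 1, KC 2 or KC 4). Over the panel the 140 calls became 1 on counts, 9 at the same total, 7 with the 100 highest, 261 with the ligation controls, 5 with the positive controls, 2 after quantile normalization, 332 after subtraction, 252 and 267 with a pseudocount of 10 and 50, 40 of 54 under a filter on low values that dropped miR-192 and miR-148a, 0 by Mann-Whitney and 26 to 176 without 1 sample (33, 26 and 41 without KC 1, KC 2 and KC 4). The cause of these shifts was not tested beyond the scalings themselves.

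Replicate numbers 1 to 4 recur in both groups. Deviations of same-numbered samples correlated at 0.0209, 0.0798, 0.0167 and 0.1037, not all over 0.1, and 3 of the 4 KC samples (all but KC 3) were nearest to the MNC sample of their own number, a hint from the data only. The numbers were not taken as pairs. With the replicate number as a block 198 miRNAs and the same number of members, 3, were called. For the ratios of miR-122 to miR-192, miR-194 and miR-148a (5.72, 5.77 and 6.53), a paired permutation test flipped the signs of the differences. On their mean it gave exact p = 0.125, the smallest for 4 pairs.

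These 3 ratios were 5.34 to 6.22, 5.21 to 6.22 and 6.17 to 6.93 without 1 sample, 4.60, 4.51 and 5.35 with a pseudocount of 10, 3.28, 3.18 and 3.66 with 50, and 6.73, 6.52 and 7.91 after subtraction, each at exact permutation p = 0.0286. The ratio of miR-192 to miR-194 turned to -0.092 and -0.10 with a pseudocount of 10 and 50 and to -0.21 after subtraction, and ran from -0.22 to 0.40 without 1 sample, negative without KC 1 (-0.0045), KC 3 (-0.17), MNC 1 (-0.22) or MNC 2 (-0.0038). miR-192 over miR-148a reached exact permutation p = 0.0286 with a pseudocount of 50 (0.38) and was 0.49 to 1.15 without 1 sample; miR-194 over miR-148a, at 0.44 to 1.01, reached it without KC 3 (1.01). With the highest herpesvirus, plant or worm row as the background limit, miR-192 was above it in 0 samples instead of 2 and miR-194 in 2 instead of 4. Of the 4 miRNAs, signals near the negative controls limit all values but those of miR-122 in KC.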
